A study of Homo sapiens with 8 samples.

Results

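A total of 40 genes of glycolysis and of the hypoxia response were followed in bulk RNA-seq libraries of docetaxel sensitive and resistant prostate cancer cells. The genes were a list of named symbols, grouped by role with no measured value in the rule. The list was nonetheless fixed with earlier results of these data known. Each gene had 1 row among the 60554 gene rows of the count files. All 40 passed the filter on low counts, which kept 20238 genes. The list held 2 glucose transporters, 14 glycolytic enzymes, 6 genes of lactate and pyruvate handling, 6 hypoxia regulators and 12 hypoxia targets. DU145 and PC3 are human cell lines derived from metastases of prostate cancer, and each was used as a sensitive and a resistant variant. There were 8 libraries in 4 groups, with 2 libraries for each variant of each line. All cells grew in RPMI 1640 medium with 10% fetal bovine serum and antibiotics. The resistant variants were kept in 10 nM docetaxel dissolved in DMSO, and the sensitive variants were kept in 0.1% DMSO. Docetaxel is a taxane that stabilises microtubules. Each resistant variant is 1 derived population, and the labels leave unstated whether the replicate libraries are separate cultures. The p-values therefore measure only the spread between these libraries, which may be technical. The labels give no oxygen level for the cultures, and they do not say whether docetaxel was withdrawn before RNA extraction.

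Glycolysis converts glucose to pyruvate in the cytosol. Transporters of the SLC2A family bring glucose in, hexokinases trap it as glucose 6-phosphate, and the later enzymes yield ATP and pyruvate. Lactate dehydrogenase then reduces pyruvate to lactate, which leaves the cell through SLC16A transporters together with a proton. Pyruvate dehydrogenase kinases switch off pyruvate dehydrogenase, the enzyme by which pyruvate is oxidised in the mitochondria. Many of these genes are transcribed under the hypoxia-inducible factors (HIF), dimers of an oxygen-regulated subunit (HIF1A or EPAS1) with ARNT. In oxygen, EGLN enzymes hydroxylate the HIF subunit and VHL then marks it for degradation, so that the protein can change while its mRNA does not. Tumours often carry high glycolysis in oxygen, and prostate cancers are known for poorly oxygenated regions.

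Total counts were 31685148 to 43045127 per library, and mitochondrial genes took 0.501% to 2.07% of them. Levels are given as CPM, the count of a gene per 1000000 counts of its library. Replicate libraries differed more than counting error allows, the chi-square statistic over its degrees of freedom being 19.3 to 51.4. Of the 6 luminal prostate markers, KLK3 and KLK2 had no count in any library. The 5 epithelial markers summed to 2558 and 4179 CPM in DU145 sensitive cells and to 250 and 396 CPM in DU145 resistant cells, with 4 of the 5 called lower, whereas the range over PC3 libraries was 758 to 1000 CPM. The 5 endothelial markers summed to 7.21 and 8.27 CPM in PC3 sensitive cells and to 53.3 and 124 CPM in PC3 resistant cells, where the sum lay almost wholly in KDR, TIE1 and PECAM1 and the defining genes VWF and CDH5 were near 0. Of the 4 that passed the filter, 3 were called higher in resistant PC3 cells. The part of these markers in the results for glycolysis and hypoxia genes was not tested. The 6 leukocyte markers summed to at most 8.92 CPM. Their sum was 1.13 and 2.34 CPM in PC3 sensitive and 2.81 and 8.92 CPM in PC3 resistant libraries. Of the 4 that passed the filter, edgeR called 2 higher in resistant PC3 cells and DESeq2 called 1. Their part in the results was not tested either.

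HIF binds a short core in DNA, written ACGTG or GCGTG, and this core was looked for on both strands in the 250 bases before the start of each gene in RefSeq (GRCh38.p14, the patched release of hg38). A promoter was found for 35 of the 40 genes, and the entries for SLC2A3, SLC16A1, VHL, VEGFA and BNIP3L were missing. At least 1 core lay in 23 of the 35 promoters (65.7%), in 43.2% of all 35116 promoters and in 53.1% of the 17350 promoters of genes that were tested. The palindrome CACGTG counts on both strands. Below are the promoters of 8 genes whose mRNA differed between the variants of a line, which let a reader see the cores that these genes do and do not carry. Cores are in capitals, read either as ACGTG and GCGTG or, on the other strand, as CACGT and CACGC. Each sequence runs 5′ to 3′ along the strand of the gene and ends 1 base before its start. LDHA lies at chr11:18394313-18394562 (+ strand), ALDOC at chr17:28576896-28577145 (- strand), PDK3 at chrX:24465036-24465285 (+ strand), EPAS1 at chr2:46297157-46297406 (+ strand), CA9 at chr9:35673678-35673927 (+ strand), ADM at chr11:10304823-10305072 (+ strand), ANGPTL4 at chr19:8363905-8364154 (+ strand) and SLC16A3 at chr17:82228185-82228434 (+ strand).
LDHA: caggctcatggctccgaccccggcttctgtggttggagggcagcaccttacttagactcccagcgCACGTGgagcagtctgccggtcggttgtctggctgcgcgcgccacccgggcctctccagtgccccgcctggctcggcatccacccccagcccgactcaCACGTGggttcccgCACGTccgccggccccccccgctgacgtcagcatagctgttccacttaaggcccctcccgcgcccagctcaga
ALDOC: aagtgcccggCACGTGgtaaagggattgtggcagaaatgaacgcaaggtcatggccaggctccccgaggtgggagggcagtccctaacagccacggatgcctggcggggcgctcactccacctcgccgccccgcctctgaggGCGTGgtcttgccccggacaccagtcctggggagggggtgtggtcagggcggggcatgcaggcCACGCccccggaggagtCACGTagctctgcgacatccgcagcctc
PDK3: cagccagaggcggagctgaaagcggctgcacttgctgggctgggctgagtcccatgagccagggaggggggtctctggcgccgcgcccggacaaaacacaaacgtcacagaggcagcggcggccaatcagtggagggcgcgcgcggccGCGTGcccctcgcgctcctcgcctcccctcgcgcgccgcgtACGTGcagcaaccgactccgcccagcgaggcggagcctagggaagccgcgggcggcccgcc
EPAS1: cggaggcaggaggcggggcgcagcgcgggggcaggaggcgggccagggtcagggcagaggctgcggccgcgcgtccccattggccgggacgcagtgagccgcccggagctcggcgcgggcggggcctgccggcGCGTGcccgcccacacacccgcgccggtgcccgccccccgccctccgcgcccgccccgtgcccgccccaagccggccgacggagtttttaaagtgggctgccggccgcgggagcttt
CA9: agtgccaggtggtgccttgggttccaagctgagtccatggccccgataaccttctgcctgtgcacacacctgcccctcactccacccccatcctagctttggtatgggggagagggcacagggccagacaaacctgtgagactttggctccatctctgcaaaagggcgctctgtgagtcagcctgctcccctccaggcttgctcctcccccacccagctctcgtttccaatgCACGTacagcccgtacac
ADM: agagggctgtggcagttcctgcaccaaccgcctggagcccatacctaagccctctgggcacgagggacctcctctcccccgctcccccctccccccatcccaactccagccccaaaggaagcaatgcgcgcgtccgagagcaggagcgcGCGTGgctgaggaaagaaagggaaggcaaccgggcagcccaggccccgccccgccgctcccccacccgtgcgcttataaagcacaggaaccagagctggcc
ANGPTL4: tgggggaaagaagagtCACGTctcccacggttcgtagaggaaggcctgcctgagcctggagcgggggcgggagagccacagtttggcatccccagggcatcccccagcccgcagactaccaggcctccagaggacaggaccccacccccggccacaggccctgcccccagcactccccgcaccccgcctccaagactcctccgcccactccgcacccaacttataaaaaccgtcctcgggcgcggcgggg
SLC16A3: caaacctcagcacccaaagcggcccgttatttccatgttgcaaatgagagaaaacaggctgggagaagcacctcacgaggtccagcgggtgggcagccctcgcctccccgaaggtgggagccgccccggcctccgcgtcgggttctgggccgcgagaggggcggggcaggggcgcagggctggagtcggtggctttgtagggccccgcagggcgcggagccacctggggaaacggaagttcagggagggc

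LDHA and ALDOC held 5 cores each, PDK3 held 2, and EPAS1, CA9, ADM and ANGPTL4 held 1 each. The single core of CA9 began 18 bases before the start of the gene. SLC16A3 held none within these 250 bases, nor did SLC2A1, HK1, PDK1 or EGLN3. Only 1 start was searched per gene, the first listed, and 33 of the 35 starts were found in a GENCODE 44 transcript. The SLC16A3 window lay within the span of the gene (chr17:82217934-82261129). Other starts, and which start these cells use, were not examined. Of the 10 hypoxia targets with a promoter, 9 held a core. A core is a match of 5 letters and not a measured binding site.

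Between resistant and sensitive DU145 cells, 7 of the 40 genes were higher and 4 were lower at an adjusted p under 0.05, the threshold for every call below, from edgeR's quasi-likelihood test with Benjamini-Hochberg adjustment over all genes tested. Across all genes, 12.4% were higher and 15.4% were lower. In PC3, 5 of the 40 were higher and 10 were lower, beside 18.6% and 17.0% of all genes. The share of members called in either direction was thus 11 of 40 in DU145, where 27.8% of all genes were called, and 15 of 40 in PC3, where 35.6% were. The median log2 fold change of the 40 genes was -0.04 in DU145 and -0.20 in PC3, and that of all genes tested was 0 and 0.01. Levels of the variants did not overlap for 21 of the 40 genes in DU145 and for 29 in PC3, beside 61.3% and 71.5% of all genes. These shares of members lay close to those of all genes. ALDOC and VEGFA were higher and SLC16A3 was lower in both lines (5.41% of all genes were called in the same direction), SLC2A3 and VHL were called in opposite directions (6.95% of all genes), and 19 of the 40 were called in neither line (49.0% of all genes). In bulk RNA, fewer cells that express a gene and less of its RNA per cell cannot be told apart.

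**Figure D1:**
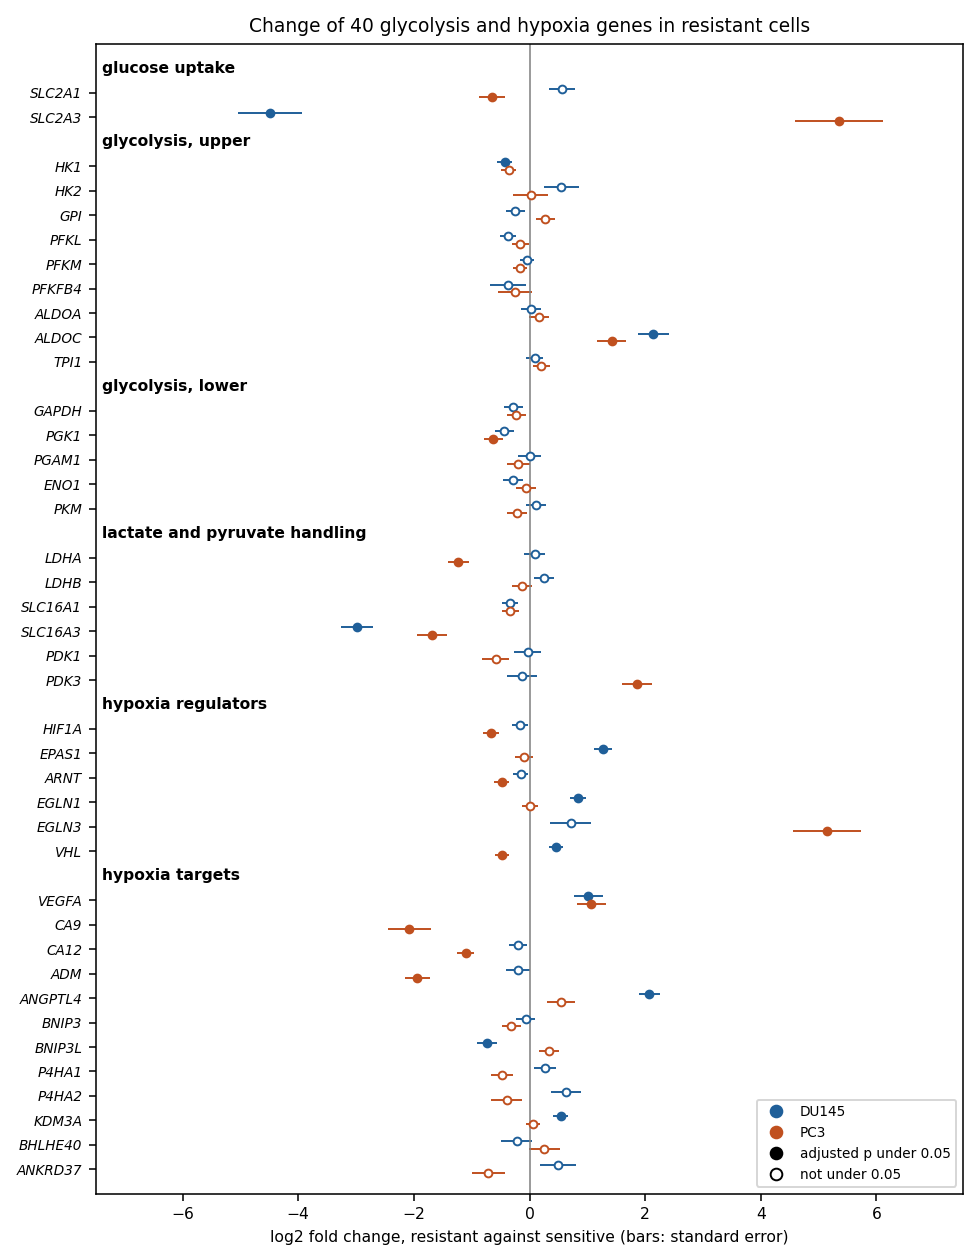
Log2 fold change of each of the 40 genes, resistant against sensitive, in DU145 (blue) and PC3 (orange), grouped by role from glucose uptake to hypoxia targets. Bars are standard errors, and filled points have an adjusted p under 0.05. Most glycolytic enzymes sit near 0 in both lines, while SLC2A3 lies at -4.49 in DU145 and at 5.35 in PC3. CA9 is not drawn for DU145, where it had at most 2 counts in a library.

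The glucose transporter SLC2A3 fell in resistant DU145 cells and rose in resistant PC3 cells. SLC2A3 (chr12:7919230-8019007), a high-affinity glucose transporter, was measured at 163 and 174 CPM in the DU145 sensitive libraries and at 2.28 and 13.0 CPM in the DU145 resistant libraries. In PC3 it stood at 0.348 and 0.221 CPM in sensitive cells and at 10.4 and 15.0 CPM in resistant cells. The variants were far apart in both lines, in opposite order, and the resistant DU145 libraries also differed widely from each other. SLC2A3 fell in DU145 with a log2 fold change of -4.49 ± 0.55 (SE, adjusted p = 0.000223) and rose in PC3 by 5.35 ± 0.75 (adjusted p = 0.000387). The PC3 change minus the DU145 change was 9.84 ± 0.92 on the log2 scale (adjusted p = 2.71e-05). Without DU145 resistant replicate 1 the DU145 change was -3.76 and the difference was 9.11, and without replicate 2 they were -6.12 and 11.5. The PC3 sensitive value rests on 12 and 7 counts, and the ratio of summed CPM between the PC3 variants was 43.8 (95% interval 27.9 to 73.0, for counting error only). Pseudogenes named after SLC2A3 held at most 42.9% as many counts as the gene, in PC3 sensitive replicate 2, and the near-identical SLC2A14 had at most 5 counts in a library.

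SLC2A1 (chr1:42925353-42958893), the glucose transporter found in most cells, had 168 and 164 CPM in DU145 sensitive and 182 and 310 CPM in DU145 resistant libraries. In PC3 it had 90.8 and 91.0 CPM in sensitive and 74.2 and 49.8 CPM in resistant libraries. The resistant libraries lay above the sensitive ones in DU145 and below them in PC3, with a wide gap between resistant replicates in both. The log2 fold change was 0.56 ± 0.22 in DU145 (SE, adjusted p = 0.086), which did not pass the threshold, and -0.65 ± 0.22 in PC3 (adjusted p = 0.043), which did. The difference between the lines was -1.21 ± 0.32 (adjusted p = 0.0133). The PC3 call was lost when PC3 resistant replicate 2 (log2 fold change -0.40), PC3 sensitive replicate 1 (-0.64) or PC3 sensitive replicate 2 (-0.67) was left out, and at a filter of 1 CPM in 4 libraries (adjusted p = 0.0678). In DU145 the gene passed the threshold with the replicate number as a block (adjusted p = 0.0366), with no filter on low counts (adjusted p = 0.011), and without DU145 resistant replicate 1 (0.84, adjusted p = 0.0163).

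The 14 glycolytic enzymes changed little in either line. Together they took 1.08% to 1.40% of all counts in every library. In DU145, ALDOC was higher, HK1 was lower and the other 12 did not pass the threshold. In PC3, ALDOC was higher, PGK1 was lower and again 12 did not pass. DESeq2 called 2 of the 14 lower in PC3, 1 of them an upper enzyme. The median log2 fold change of the 14 was -0.14 in DU145 and -0.16 in PC3, and the median absolute change was 0.28 and 0.21, beside 0.48 and 0.54 over all genes tested. None of the 14 differed between the lines in its change by edgeR's quasi-likelihood test at the adjusted threshold, beside 34.3% of all genes. At an unadjusted p under 0.05 the number was also 0 of 14, and DESeq2 called 0.

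Among the upper enzymes, HK1 (hexokinase 1, which traps glucose in the cell) was measured at 228 and 221 CPM in DU145 sensitive and at 148 and 184 CPM in DU145 resistant libraries. Both resistant values lay below both sensitive ones, and HK1 fell by 0.43 on the log2 scale (SE 0.13, adjusted p = 0.0342). The PC3 values were 430 and 427 CPM in sensitive and 362 and 352 CPM in resistant libraries, with a log2 fold change of -0.36 ± 0.13 (adjusted p = 0.0549). The DU145 call was lost in a fit on DU145 alone (adjusted p = 0.0952), with no filter on low counts (adjusted p = 0.0625), and without DU145 sensitive replicate 1 (log2 fold change -0.37) or 2 (-0.48), DU145 resistant replicate 1 (-0.34) or either PC3 sensitive library (-0.43). HK2, the inducible hexokinase of many tumours, ranged from 31.6 to 80.2 CPM in DU145 and from 105 to 139 CPM in PC3, and its variants overlapped in both. GPI, which converts glucose 6-phosphate to fructose 6-phosphate, had log2 fold changes of -0.25 ± 0.17 in DU145 and 0.27 ± 0.17 in PC3. The phosphofructokinase subunits PFKL and PFKM had log2 fold changes from -0.38 to -0.04, and PFKFB4, which sets the level of their activator fructose 2,6-bisphosphate, had -0.37 ± 0.31 in DU145 and -0.25 ± 0.30 in PC3. ALDOA, the main aldolase, lay at 1174 to 1574 CPM in DU145 and 844 to 1037 CPM in PC3, and TPI1, the triose phosphate isomerase, lay at 401 to 487 CPM and 478 to 612 CPM. Neither passed the threshold in a line.

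ALDOC (chr17:28573115-28576948), the aldolase known from brain, was the exception. It had 1.78 and 2.24 CPM in DU145 sensitive and 6.22 and 11.6 CPM in DU145 resistant libraries. In PC3 it had 11.4 and 11.8 CPM in sensitive and 34.9 and 31.5 CPM in resistant libraries. In both lines each resistant library lay well above both sensitive ones. ALDOC rose by 2.14 ± 0.27 on the log2 scale in DU145 (SE, adjusted p = 0.000285) and by 1.42 ± 0.25 in PC3 (adjusted p = 0.00147), and the change did not differ between the lines at the threshold (-0.72 ± 0.36, adjusted p = 0.151). Per kilobase of transcript, ALDOC held 0.115% and 0.194% of the summed ALDOA and ALDOC level in DU145 sensitive cells and 0.433% and 0.887% in DU145 resistant cells. In PC3 the share was 1.31% and 1.40% in sensitive and 3.32% and 3.05% in resistant cells, so that ALDOA made up nearly all of the aldolase mRNA in every library.

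Of the 5 lower enzymes, PGK1, the first ATP-yielding enzyme of the pathway, was the only one called. It had 1256 and 1335 CPM in PC3 sensitive and 812 and 989 CPM in PC3 resistant libraries, with both resistant values below both sensitive ones, and fell by 0.62 on the log2 scale (SE 0.17, adjusted p = 0.0139). In DU145 it had 619 and 496 CPM in sensitive and 388 and 432 CPM in resistant libraries, a log2 fold change of -0.44 ± 0.17 (adjusted p = 0.0727). The PC3 call was lost without PC3 sensitive replicate 1 (-0.65, adjusted p = 0.0582), PC3 sensitive replicate 2 (-0.60, adjusted p = 0.0773) or PC3 resistant replicate 1 (-0.48, adjusted p = 0.107). GAPDH, which oxidises glyceraldehyde 3-phosphate and is often taken as a reference gene, ranged from 2385 to 3411 CPM over the 8 libraries, with log2 fold changes of -0.28 ± 0.16 in DU145 and -0.23 ± 0.16 in PC3. PGAM1 (phosphoglycerate mutase), ENO1 (enolase) and PKM (pyruvate kinase) had log2 fold changes from -0.29 to 0.11 in DU145 and from -0.22 to -0.06 in PC3.

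Of the genes of lactate and pyruvate handling, SLC16A3 was the one that fell in both lines. SLC16A3 (chr17:82217934-82261129), the transporter MCT4 by which highly glycolytic cells release lactate, had 164 and 131 CPM in DU145 sensitive and 12.0 and 25.3 CPM in DU145 resistant libraries. In PC3 it had 361 and 402 CPM in sensitive and 115 and 138 CPM in resistant libraries. All 4 resistant libraries lay below the sensitive libraries of their line. SLC16A3 fell by 2.99 on the log2 scale in DU145 (SE 0.28, adjusted p = 3.35e-05) and by 1.69 in PC3 (SE 0.26, adjusted p = 0.000673). The difference of 1.30 ± 0.36 between the lines (adjusted p = 0.0188) was lost without DU145 sensitive replicate 1 (1.10), PC3 sensitive replicate 1 (1.24) or PC3 resistant replicate 2 (1.16). CSNK1D, whose exons overlap those of SLC16A3 on the opposite strand, had 124 to 133 CPM in the DU145 libraries (log2 fold change 0.02 ± 0.12, adjusted p = 0.942). In PC3, CSNK1D had 140 and 145 CPM in sensitive and 95.4 and 98.8 CPM in resistant libraries and fell with SLC16A3, by 0.66 on the log2 scale (SE 0.12, adjusted p = 0.00183), and its part in the PC3 value of SLC16A3 was not tested. SLC16A1 (MCT1), which moves lactate in either direction, had log2 fold changes of -0.34 ± 0.14 in DU145 and -0.33 ± 0.14 in PC3, neither called. Per kilobase, SLC16A3 held 48.7% to 53.5% of the summed level of both transporters in DU145 sensitive cells and 9.65% and 19.0% in DU145 resistant cells. The share was 64.3% and 69.1% in PC3 sensitive and 39.5% and 48.2% in PC3 resistant cells.

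LDHA (chr11:18394560-18408425), the lactate dehydrogenase subunit that favours lactate formation, changed in PC3. It was measured at 1635 and 1844 CPM in PC3 sensitive and at 803 and 786 CPM in PC3 resistant libraries. In DU145 it stood at 1055 and 797 CPM in sensitive and at 1042 and 912 CPM in resistant libraries. The PC3 variants were clearly separated, and the DU145 variants overlapped. LDHA fell by 1.23 on the log2 scale in PC3 (SE 0.18, adjusted p = 0.000512), whereas the log2 fold change in DU145 was 0.09 ± 0.18 (adjusted p = 0.764), and the difference was -1.32 ± 0.25 (adjusted p = 0.00265). LDHB, the subunit of the same enzyme that predominates in heart, had 842 and 705 CPM in DU145 sensitive and 1000 and 818 CPM in DU145 resistant libraries. It had 587 and 511 CPM in PC3 sensitive and 556 and 523 CPM in PC3 resistant libraries, with overlap in both lines. Its log2 fold change was 0.25 ± 0.18 in DU145, with an adjusted p of 0.337, and -0.13 ± 0.18 in PC3, with an adjusted p of 0.618. Per kilobase, LDHB held 38.2% and 32.3% of the summed LDHA and LDHB level in PC3 sensitive cells and 54.3% and 53.4% in PC3 resistant cells, beside 57.8% to 62.3% in the DU145 libraries.

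PDK3 (chrX:24465244-24550466), a kinase that switches off pyruvate dehydrogenase, had 5.01 and 3.31 CPM in PC3 sensitive and 16.8 and 15.7 CPM in PC3 resistant libraries. In DU145 it had 8.46 and 6.53 CPM in sensitive and 6.34 and 7.32 CPM in resistant libraries. The resistant libraries stood above the sensitive ones in PC3, and the variants overlapped in DU145. PDK3 rose by 1.86 ± 0.26 on the log2 scale in PC3 (SE, adjusted p = 0.000372), had a log2 fold change of -0.13 ± 0.25 in DU145 (adjusted p = 0.748), and differed between the lines by 1.99 ± 0.36 (adjusted p = 0.00191). PDK1, the kinase of the same family best known as a HIF target, was not called. It ranged from 19.1 to 32.8 CPM in DU145, where the variants overlapped, and had 50.8 and 53.2 CPM in PC3 sensitive against 38.8 and 35.5 CPM in PC3 resistant libraries (log2 fold change -0.59 ± 0.24, adjusted p = 0.0762).

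**Figure D2:**
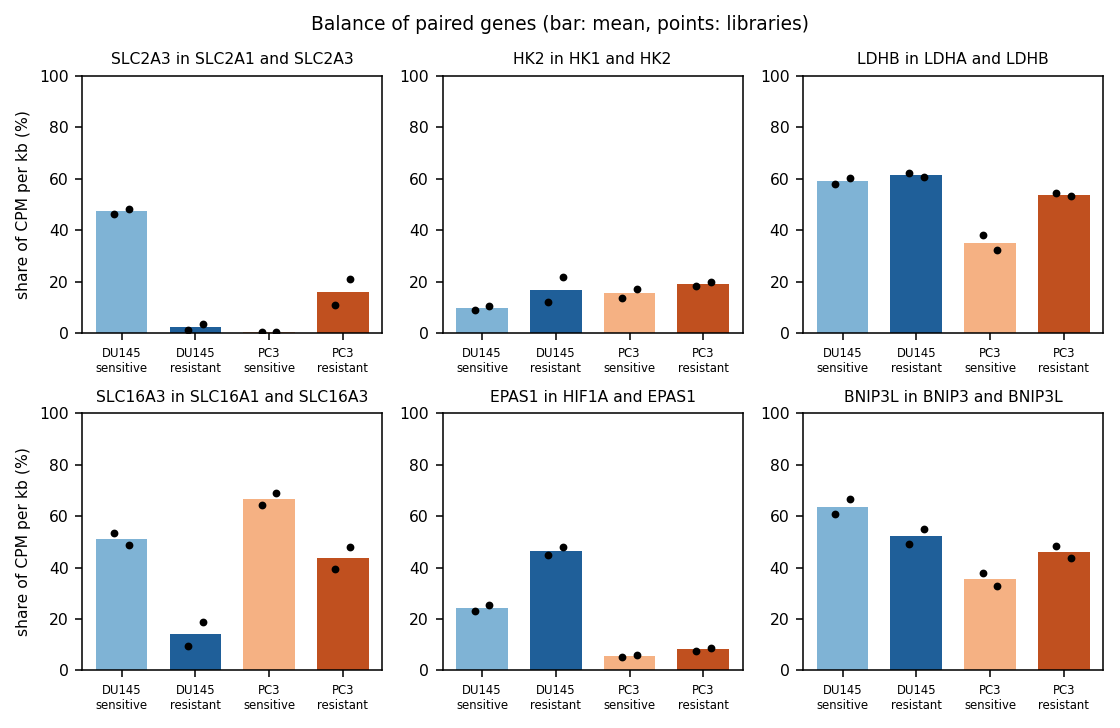
Share of the second gene in the summed level of a pair (CPM per kilobase of the canonical transcript, in percent), as group mean (bar) and library values (points), in DU145 sensitive and resistant (blue) and PC3 sensitive and resistant cells (orange). SLC2A3 drops from 46.2% and 48.4% to 1.10% and 3.57% between the DU145 variants, and SLC16A3 takes a smaller share in resistant cells of both lines.

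Of the 6 hypoxia regulators, EPAS1, EGLN1 and VHL were higher in resistant DU145 cells and none was lower by edgeR's quasi-likelihood test. At an unadjusted p under 0.05 the number lower was also 0 of 6, and DESeq2 called 0. In resistant PC3 cells EGLN3 was higher, and HIF1A, ARNT and VHL were lower. Of all genes, 12.4% were higher and 15.4% lower in DU145, and 18.6% and 17.0% in PC3. At these shares 0 lower among 6 genes carries little weight. HIF1A (chr14:61695513-61748259), the HIF-1 alpha subunit, had 459 and 506 CPM in DU145 sensitive and 417 and 438 CPM in DU145 resistant libraries. It had 910 and 827 CPM in PC3 sensitive and 558 and 620 CPM in PC3 resistant libraries. The resistant libraries lay below the sensitive ones in both lines, by little in DU145. HIF1A fell by 0.66 on the log2 scale in PC3 (SE 0.14, adjusted p = 0.00434), and its log2 fold change was -0.16 ± 0.14 in DU145 (adjusted p = 0.422). The PC3 call was lost without PC3 sensitive replicate 1 (-0.57, adjusted p = 0.0541). The difference of -0.50 ± 0.20 between the lines did not pass (adjusted p = 0.0761), though it did with the replicate number as a block (adjusted p = 0.034).

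EPAS1 (chr2:46293667-46386697) encodes the other oxygen-regulated subunit, HIF-2 alpha. It was measured at 180 and 227 CPM in DU145 sensitive and at 445 and 530 CPM in DU145 resistant libraries. In PC3 it was measured at 66.2 and 70.6 CPM in sensitive and at 61.1 and 75.7 CPM in resistant libraries. The DU145 variants were widely separated, and the PC3 variants overlapped at a lower level. EPAS1 rose by 1.27 ± 0.16 on the log2 scale in DU145 (SE, adjusted p = 0.000249), with -0.10 ± 0.16 in PC3 (adjusted p = 0.67) and a difference of -1.37 ± 0.22 between the lines (adjusted p = 0.00103). Per kilobase, EPAS1 held 23.1% and 25.6% of the summed HIF1A and EPAS1 level in DU145 sensitive cells and 45.0% and 48.1% in DU145 resistant cells. In PC3 the share ranged from 5.28% to 8.55%. ARNT, the common partner, had 133 and 148 CPM in DU145 sensitive and 117 and 135 CPM in DU145 resistant libraries. It had 52.8 and 61.9 CPM in PC3 sensitive and 43.2 and 44.9 CPM in PC3 resistant libraries, where the resistant values were below the sensitive ones. ARNT fell by 0.48 on the log2 scale in PC3 (SE 0.13, adjusted p = 0.0159), a call lost without PC3 sensitive replicate 2 (-0.38), PC3 resistant replicate 1 (-0.44) or 2 (-0.51) and with no filter on low counts (adjusted p = 0.0558).

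EGLN1 (PHD2), the main oxygen sensor of the pathway, had 153 and 132 CPM in DU145 sensitive and 250 and 259 CPM in DU145 resistant libraries, with no overlap. It had 73.8 and 85.2 CPM in PC3 sensitive and 89.7 and 81.2 CPM in PC3 resistant libraries, with overlap. EGLN1 rose by 0.84 ± 0.14 on the log2 scale in DU145 (SE, adjusted p = 0.00135), with 0.01 ± 0.14 in PC3 and a difference of -0.84 ± 0.20 between the lines (adjusted p = 0.00774). EGLN3 (PHD3), a member of the same family that is itself a HIF target, had 13.7 and 5.81 CPM in DU145 sensitive and 16.6 and 15.2 CPM in DU145 resistant libraries. Its PC3 levels were 0.116 and 0.0631 CPM in sensitive and 3.74 and 3.37 CPM in resistant libraries. The resistant libraries were above the sensitive ones in both lines, and the DU145 sensitive libraries differed more than 2-fold from each other. EGLN3 rose by 5.14 ± 0.58 on the log2 scale in PC3 (SE, adjusted p = 8.65e-05), and its DU145 value of 0.71 ± 0.35 did not pass (adjusted p = 0.158). The difference between the lines was 4.44 ± 0.71 (adjusted p = 0.000894), and it was 3.65 without DU145 sensitive replicate 1. The PC3 sensitive level rests on 4 and 2 counts, and the ratio of summed CPM was 39.4 (95% interval 17.9 to 108, for counting error only).

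VHL, the substrate-binding subunit of the ligase that degrades hydroxylated HIF, had 57.2 and 55.5 CPM in DU145 sensitive and 72.7 and 82.4 CPM in DU145 resistant libraries. It had 88.4 and 94.6 CPM in PC3 sensitive and 69.3 and 71.7 CPM in PC3 resistant libraries. The variants were separated in both lines, in opposite order. VHL rose by 0.47 ± 0.12 on the log2 scale in DU145 (SE, adjusted p = 0.0158) and fell by 0.47 in PC3 (SE 0.12, adjusted p = 0.0112), and the difference was -0.94 ± 0.17 (adjusted p = 0.00191). The DU145 call was lost without DU145 sensitive replicate 2 (0.42), DU145 resistant replicate 1 (0.49) or 2 (0.46) and with no filter on low counts (adjusted p = 0.054). The PC3 call was lost without PC3 sensitive replicate 1 (-0.51) or 2 (-0.45), PC3 resistant replicate 1 (-0.44) and with no filter (adjusted p = 0.0605). The difference between the lines passed the threshold in each of the 8 fits that left out 1 library, with values from -0.99 to -0.89.

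Among the 12 hypoxia targets, 3 were higher and 1 was lower in resistant DU145 cells, and 1 was higher and 3 were lower in resistant PC3 cells. With 4 of 12 called in each line, the targets lay near the shares of all genes called in either direction, 27.8% in DU145 and 35.6% in PC3. The median log2 fold change was 0.10 in DU145 and -0.36 in PC3. VEGFA (chr6:43770184-43786487), the growth factor for blood vessels, was the only target called in both lines. It had 89.2 and 125 CPM in DU145 sensitive and 154 and 280 CPM in DU145 resistant libraries. It had 46.7 and 56.4 CPM in PC3 sensitive and 132 and 98.5 CPM in PC3 resistant libraries. All 4 resistant libraries lay above the sensitive libraries of their line, with a large spread between replicates in DU145. VEGFA rose by 1.02 ± 0.25 on the log2 scale in DU145 (SE, adjusted p = 0.0113) and by 1.07 ± 0.25 in PC3 (adjusted p = 0.00729). The DU145 call was lost without DU145 sensitive replicate 1 (0.82) or DU145 resistant replicate 2 (0.63), and the PC3 call without PC3 sensitive replicate 1 (0.95) or PC3 resistant replicate 1 (0.85).

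The 3 targets that fell in PC3 were CA9, CA12 and ADM. CA9, a carbonic anhydrase of the cell surface that is widely used as a mark of hypoxia, had 5.73 and 7.86 CPM in PC3 sensitive and 1.90 and 1.53 CPM in PC3 resistant libraries, with no overlap, and fell by 2.08 on the log2 scale (SE 0.38, adjusted p = 0.00232). In DU145 it had 2 counts in sensitive replicate 1 and 0 in the other 3 libraries, under the floor of 3 counts per library, so that no fold is given. Reads of ARHGEF39, which overlaps CA9 on the opposite strand and had 138 to 1798 counts per library, did not give CA9 more than 2 counts in DU145. CA12 (chr15:63321378-63381846), another surface carbonic anhydrase, had 129 and 132 CPM in PC3 sensitive and 65.1 and 64.9 CPM in PC3 resistant libraries. It had 6.37 and 5.03 CPM in DU145 sensitive and 4.62 and 5.30 CPM in DU145 resistant libraries. The PC3 variants were tightly grouped and apart, and the DU145 variants overlapped. CA12 fell by 1.10 on the log2 scale in PC3 (SE 0.14, adjusted p = 0.000243), with -0.20 ± 0.16 in DU145 and a difference of -0.91 ± 0.22 (adjusted p = 0.00867).

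ADM (chr11:10305073-10307397), which encodes the vasodilator adrenomedullin, had 22.6 and 33.6 CPM in PC3 sensitive and 7.46 and 8.22 CPM in PC3 resistant libraries. It had 34.3 and 39.2 CPM in DU145 sensitive and 27.2 and 36.7 CPM in DU145 resistant libraries. Both PC3 resistant libraries were far below the sensitive ones, and the DU145 variants overlapped. ADM fell by 1.94 on the log2 scale in PC3 (SE 0.21, adjusted p = 6.93e-05), with -0.20 ± 0.20 in DU145 and a difference of -1.74 ± 0.29 (adjusted p = 0.00114). ANGPTL4 (chr19:8363289-8374370), a secreted inhibitor of lipoprotein lipase, had 15.6 and 18.2 CPM in DU145 sensitive and 59.3 and 82.1 CPM in DU145 resistant libraries. In PC3 it had 0.898 and 0.947 CPM in sensitive and 1.37 and 1.53 CPM in resistant libraries. The resistant libraries were above the sensitive ones in both lines, at a low level in PC3. ANGPTL4 rose by 2.07 ± 0.18 on the log2 scale in DU145 (SE, adjusted p = 2.4e-05), with 0.55 ± 0.24 in PC3 (adjusted p = 0.102) and a difference of -1.52 ± 0.30 (adjusted p = 0.00325).

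BNIP3L, a receptor for the removal of mitochondria, had 270 and 305 CPM in DU145 sensitive and 135 and 211 CPM in DU145 resistant libraries. It had 101 and 109 CPM in PC3 sensitive and 144 and 139 CPM in PC3 resistant libraries. The order of the variants was opposite in the lines. BNIP3L fell by 0.73 on the log2 scale in DU145 (SE 0.17, adjusted p = 0.0094), with 0.34 ± 0.17 in PC3 (adjusted p = 0.154) and a difference of 1.07 ± 0.24 (adjusted p = 0.00651). The DU145 call was lost without DU145 resistant replicate 1 (-0.50, adjusted p = 0.0584). PNMA2, which overlaps BNIP3L on the opposite strand, had 6938 and 7784 counts in DU145 sensitive and 2713 and 3353 counts in DU145 resistant libraries, and its part in the BNIP3L value was not tested. KDM3A, a histone demethylase, had 62.1 and 62.7 CPM in DU145 sensitive and 84.3 and 96.2 CPM in DU145 resistant libraries, which did not overlap. It had 78.8 and 88.7 CPM in PC3 sensitive and 96.6 and 90.0 CPM in PC3 resistant libraries. KDM3A rose by 0.54 ± 0.12 on the log2 scale in DU145 (SE, adjusted p = 0.00881), a call lost without DU145 sensitive replicate 2 (0.52, adjusted p = 0.0572), with 0.06 ± 0.12 in PC3.

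The other 5 targets were called in neither line. BNIP3, which acts like BNIP3L, ranged from 62.1 to 77.7 CPM in DU145 and from 69.0 to 99.7 CPM in PC3, with overlap in both. The collagen prolyl hydroxylases P4HA1 and P4HA2 had log2 fold changes of 0.27 and 0.63 in DU145 and of -0.47 and -0.40 in PC3. BHLHE40, a repressor that is induced by HIF, stood at 47.6 and 108 CPM in the DU145 resistant libraries, a gap wider than that between the variants of either line. ANKRD37, a small ankyrin repeat protein, had 1.31 to 2.36 CPM in DU145 and 2.74 to 4.92 CPM in PC3, and its difference of -1.21 ± 0.42 between the lines (adjusted p = 0.0453) was lost in 7 of the 8 fits that left out 1 library, with values from -1.34 to -0.97, and with no filter on low counts (adjusted p = 0.0833). UFSP2, which overlaps ANKRD37 on the opposite strand, had 11.3 to 20.2 CPM and was called in neither line. Its part in the ANKRD37 value was not tested.

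**Figure D3:**
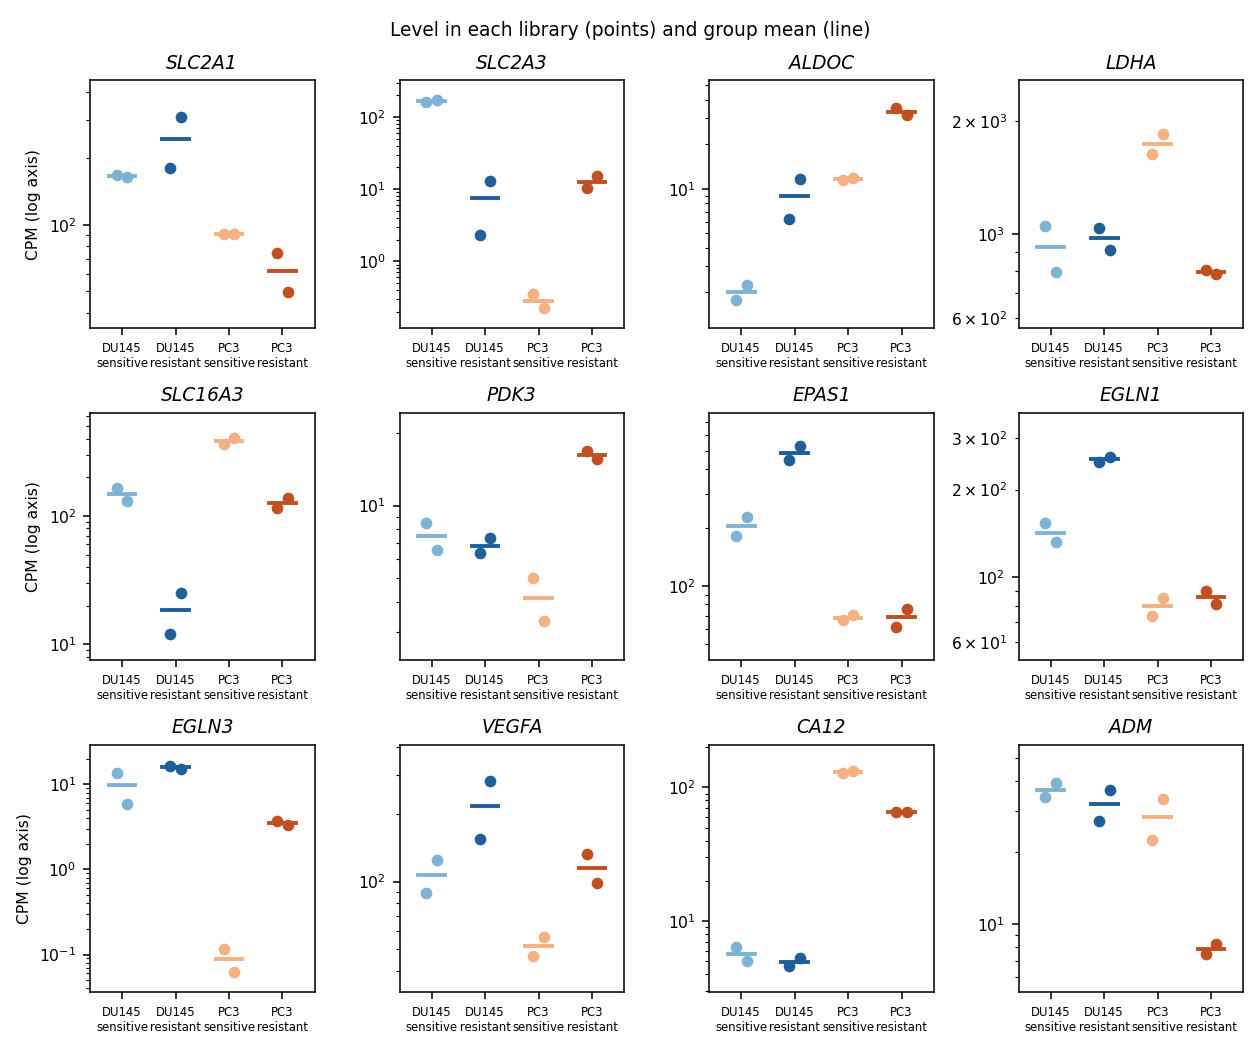
Level of 12 of the genes in each library (points, CPM on a log axis) with the group mean (line), for the sensitive and resistant variants of DU145 (blue) and PC3 (orange). SLC16A3 is lower and ALDOC is higher in the resistant libraries of both lines, while for LDHA, CA12 and ADM the PC3 variants are apart and the DU145 variants overlap.

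In all, 14 of the 40 genes differed between the lines in their change, 5 with a more positive change in PC3 and 9 with a more negative one, beside 34.3% of all genes (18.5% and 15.9% by direction). The median of the PC3 change minus the DU145 change was -0.22 for the 40 genes and 0.03 for all genes. The comparison uses the same libraries as the changes within each line. SLC2A3, EGLN3, PDK3, SLC16A3 and BNIP3L were the 5 with a more positive change in PC3. SLC2A1, LDHA, EPAS1, EGLN1, VHL, CA12, ADM, ANGPTL4 and ANKRD37 were the 9 with a more negative one. They came from glucose uptake (2 of 2 genes), lactate and pyruvate handling (3 of 6), hypoxia regulators (4 of 6) and hypoxia targets (5 of 12), and none was a glycolytic enzyme.

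The sensitive variants differed from each other before any comparison with resistance. Of the 40 genes, 19 were higher and 12 were lower in PC3 sensitive than in DU145 sensitive cells, beside 28.6% and 29.2% of all genes, with a median log2 difference of 0.26 (all genes -0.03). CA12 was 4.58 ± 0.17 higher in PC3 on the log2 scale (SE, adjusted p = 1.1e-08), ALDOC was 2.59 ± 0.28 higher (adjusted p = 1.81e-05) and PGK1 was 1.28 ± 0.17 higher (adjusted p = 7.98e-05). CA9, at 2 counts in DU145 and 447 in PC3 over both sensitive libraries, had a ratio of 239 with a 95% counting interval of 65.7 to 1977. ANGPTL4 was lower in PC3 by -4.12 ± 0.22 (adjusted p = 1.22e-07) and EPAS1 by -1.51 ± 0.16 (adjusted p = 1.8e-05). EGLN3 had a ratio of 108 in favour of DU145 (95% counting interval 49.4 to 296). SLC2A3 was the lowest of the 40 in this comparison, with a log2 difference of -9.12 ± 0.77 (adjusted p = 3.14e-06). LDHA was 0.97 ± 0.18 higher in PC3 sensitive cells (adjusted p = 0.000883), the line in which it fell with resistance. These differences use the sensitive libraries that also serve as controls for resistance.

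A further 88 genes of the same pathways, not among the 40, were listed by role, and 81 passed the filter. In DU145, 12 were higher and 23 were lower (12.4% and 15.4% of all genes), and in PC3, 17 were higher and 16 were lower (18.6% and 17.0%). Their median log2 fold change was -0.01 in DU145 and -0.02 in PC3. The most one-sided list was that of other glucose transport and glycolysis genes in DU145, with 1 of 23 higher and 10 lower and a median of -0.66. SLC2A10, another glucose transporter, had 5.82 and 9.03 CPM in DU145 sensitive and 0.234 and 0.230 CPM in DU145 resistant libraries, and the ratio of sensitive to resistant CPM was 31.9 (95% counting interval 19.4 to 56.2, adjusted p = 9.38e-06). In PC3 it had 13.3 and 15.0 CPM in sensitive and 32.5 and 49.8 CPM in resistant libraries and rose by 1.44 ± 0.25 on the log2 scale (adjusted p = 0.00146). SLC2A10 thus went the same way as SLC2A3 in each line. SLC16A7 (MCT2), another lactate and pyruvate carrier, fell in both lines like SLC16A3, by 3.32 on the log2 scale in DU145 (SE 0.36, adjusted p = 9.69e-05) and by 1.54 in PC3 (SE 0.27, adjusted p = 0.00152). Without DU145 resistant replicate 2 the SLC16A7 value in DU145 was -4.08. HKDC1, a hexokinase relative, fell by 2.62 in DU145 (SE 0.40, adjusted p = 0.000799), and its log2 fold change was -3.39 without DU145 resistant replicate 1. LDHD, which oxidises D-lactate, had 82 counts over both DU145 sensitive libraries and 6 over both resistant ones (adjusted p = 0.0203), a call lost without DU145 sensitive replicate 2 (log2 fold change -1.93) or DU145 resistant replicate 1 (-2.77). The LDHD value was -4.45 without DU145 sensitive replicate 1, and none is given without resistant replicate 2, since the other resistant library had 0 counts. SLC2A4 and SLC2A12 rose in PC3 by 1.51 ± 0.44 and 1.50 ± 0.52 on the log2 scale (adjusted p = 0.0215 and 0.0455), and each call was lost in at least 3 of the 4 fits that left out a PC3 library, with values from 1.16 to 1.78.

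Of 12 genes listed for pyruvate dehydrogenase and mitochondrial pyruvate import, 2 were higher and 4 were lower in resistant DU145 cells (27.8% of all genes were called in either direction). In resistant PC3 cells, 3 were higher and 2 were lower, a share close to the 35.6% of all genes called. PDK2, a kinase like PDK1 and PDK3, had 24.7 and 20.1 CPM in DU145 sensitive and 5.93 and 5.56 CPM in DU145 resistant libraries, with no overlap, and fell by 1.95 on the log2 scale (SE 0.18, adjusted p = 3.21e-05). PDK4, the kinase induced by fasting, fell by 2.22 in DU145 (SE 0.32, adjusted p = 0.000608), and PC, pyruvate carboxylase, fell by 1.90 (SE 0.29, adjusted p = 0.000776). In PC3, MPC1, a subunit of the mitochondrial pyruvate carrier, had 11.6 and 11.5 CPM in sensitive and 32.4 and 30.2 CPM in resistant libraries and rose by 1.34 ± 0.19 on the log2 scale (adjusted p = 0.000371). PDP1, the phosphatase that reverses the kinases, rose by 0.83 ± 0.19 in PC3 (adjusted p = 0.00726), a call lost without PC3 sensitive replicate 1 (0.75), and PDHX, a structural subunit, fell by 0.75 (SE 0.13, adjusted p = 0.00152). DLAT, the acetyltransferase of pyruvate dehydrogenase, rose by 0.94 ± 0.17 in DU145 (adjusted p = 0.00266) and by 0.58 ± 0.17 in PC3 (adjusted p = 0.0227), the latter lost without PC3 sensitive replicate 1 (0.71) or 2 (0.46) or PC3 resistant replicate 1 (0.41).

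Of 11 other genes of oxygen sensing, 1 was higher and 1 was lower in DU145, and 2 were higher and 2 were lower in PC3. The calls in either direction, 2 of 11 and 4 of 11, stood beside 27.8% and 35.6% of all genes and were no more frequent than over all genes in DU145 and close to them in PC3. ARNT2, a partner that can stand in for ARNT, had 0.319 and 1.39 CPM in PC3 sensitive and 35.9 and 33.1 CPM in PC3 resistant libraries, far apart, and rose by 5.26 ± 0.50 on the log2 scale (SE, adjusted p = 2.5e-05). The value was 4.55 without PC3 sensitive replicate 1 and 6.62 without replicate 2. CUL2, the scaffold of the VHL ligase, had 1181 and 1150 CPM in PC3 sensitive and 493 and 534 CPM in PC3 resistant libraries and fell by 1.28 (SE 0.15, adjusted p = 0.000104). In DU145 it ranged from 71.7 to 88.4 CPM, so that both PC3 variants lay far above every DU145 library. The elongin ELOC fell by 0.65 in DU145 (SE 0.13, adjusted p = 0.00453) and by 0.42 in PC3 (SE 0.13, adjusted p = 0.0286), the PC3 call being lost without any single PC3 library (-0.47 to -0.38) and with no filter (adjusted p = 0.104). ELOB rose by 0.57 ± 0.15 in PC3 (adjusted p = 0.0147) and HIF1AN, the asparagine hydroxylase that blocks HIF activity, by 0.41 ± 0.13 in DU145 (adjusted p = 0.0416). The ELOB call was lost without PC3 sensitive replicate 1 (0.64) or 2 (0.50) or PC3 resistant replicate 2 (0.53), and the HIF1AN call in 7 of the 8 fits that left out 1 library, with values from 0.30 to 0.44, in a fit on DU145 alone (adjusted p = 0.0838) and with no filter on low counts (adjusted p = 0.101).

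Other hypoxia targets were called on both sides, with 8 of 35 higher in DU145 against 8 lower, and 8 higher in PC3 against 9 lower. In either direction 16 of 35 were called in DU145 and 17 of 35 in PC3, beside 27.8% and 35.6% of all genes. The list was made with earlier results of these data known, and it was not tested as a set. STC1, the glycoprotein hormone stanniocalcin 1, was higher in both lines, with 2.25 and 2.53 CPM in DU145 sensitive against 7.86 and 25.8 CPM in DU145 resistant libraries and 7.88 and 11.6 CPM in PC3 sensitive against 40.6 and 90.9 CPM in PC3 resistant libraries. The resistant libraries were above the sensitive ones throughout, though far from each other. STC1 rose by 2.79 ± 0.52 on the log2 scale in DU145 (SE, adjusted p = 0.00279) and by 2.66 ± 0.49 in PC3 (adjusted p = 0.00194). Without replicate 2 of the resistant group these were 1.81 and 1.95. VLDLR, a lipoprotein receptor, fell by 1.35 in DU145 (SE 0.21, adjusted p = 0.00109) and rose by 4.28 ± 0.30 in PC3 (adjusted p = 2.99e-06). IGFBP3, a binding protein for insulin-like growth factors, rose by 1.87 ± 0.29 in DU145 (adjusted p = 0.00088), and PPP1R3C, a glycogen-targeting subunit, rose by 1.56 ± 0.40 (adjusted p = 0.0141), a call lost without DU145 sensitive replicate 2 (1.06) or DU145 resistant replicate 1 (1.40). Without DU145 sensitive replicate 1 the PPP1R3C value was 2.32. CXCR4, a chemokine receptor, had 1 count over both PC3 sensitive libraries and 759 over both resistant ones, a ratio of 616 with a 95% counting interval of 110 to 24356 (adjusted p = 1.08e-06). RORA, a nuclear receptor, rose by 4.68 ± 0.40 in PC3 (adjusted p = 1.12e-05).

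**Figure D4:**
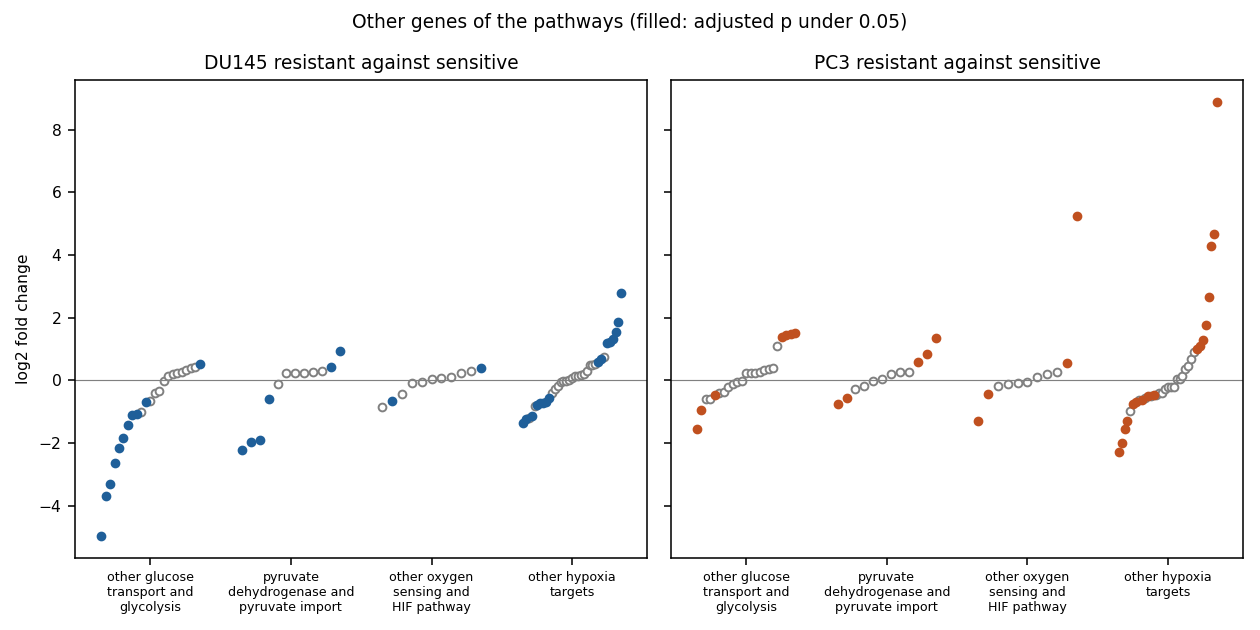
Log2 fold change, resistant against sensitive, of the 81 other genes of these pathways in DU145 (left) and PC3 (right), ordered by value within each of 4 lists. Filled points have an adjusted p under 0.05. Calls lie on both sides of 0 in each list, and of the other glucose transport and glycolysis genes 10 of 23 fell and 1 rose in DU145.

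The libraries of a group differed from each other in hypoxia targets more than in other genes in some groups. This comparison uses CPM on library sizes of the genes kept, scaled by TMM, so that its values differ from the CPM printed above. Over the 47 targets tested, members and others together, replicate 2 was higher than replicate 1 for 40 genes in DU145 resistant cells, for 40 in PC3 sensitive cells, for 25 in DU145 sensitive cells and for 27 in PC3 resistant cells. The median log2 difference between replicates was 0.26, 0.17, 0.07 and 0.05 in the same order, beside 0 in each group over all genes tested. In DU145 resistant cells 10 of the 47 were more than 1.5-fold higher in replicate 2 and 0 in replicate 1, beside 4.32% and 2.64% of all genes. Of the members, VEGFA was 0.75 higher in TMM-scaled log2(CPM + 1) in DU145 resistant replicate 2 than in replicate 1. BHLHE40 was 1.06 higher and BNIP3L was 0.54 higher. Among the other targets STC1, DDIT4 and NDRG1 were 1.50, 1.44 and 1.39 higher. SLC2A1, HK2 and SLC2A3, as given above, were also higher in that library. The labels name no batch or culture for the libraries, and the part of this difference in the DU145 results was not tested beyond the fits that left out each library.

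**Figure D5:**
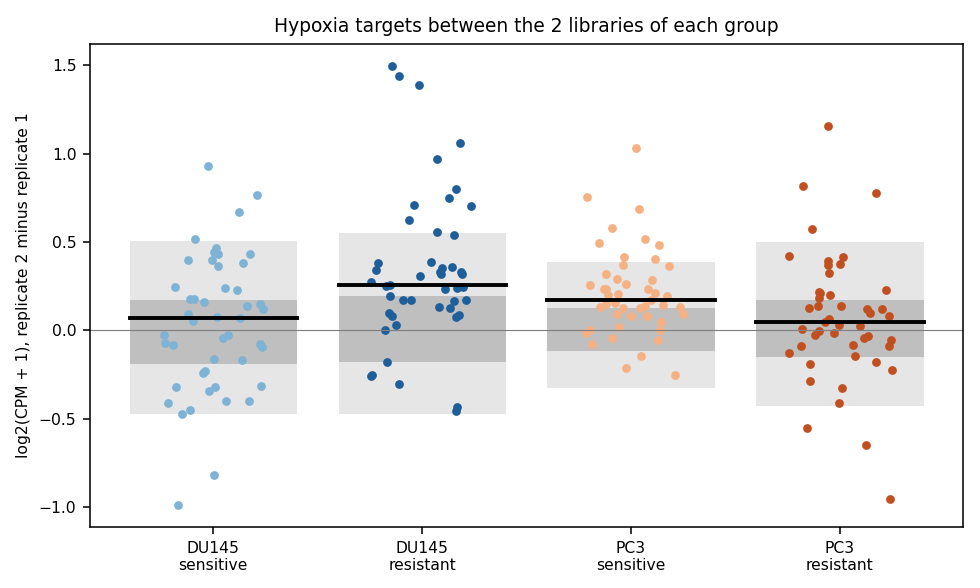
Difference between the 2 libraries of each group, replicate 2 minus replicate 1 in log2(CPM + 1), for 47 hypoxia targets (points) with their median (black line). CPM here uses library sizes scaled by TMM. Dark grey boxes hold the interquartile range of all genes tested, and light grey boxes run from their 5th to their 95th percentile. In DU145 resistant and PC3 sensitive cells 40 of 47 points lie above 0.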

How the data were processed

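Bulk RNA-seq libraries of docetaxel sensitive and resistant DU145 and PC3 cells were analysed, 8 in all and 2 per group, grouped by the sample labels. Per the labels, total RNA was made into libraries with a SMART-seq mRNA kit. The authors deposited raw read counts per gene, 1 file per library, without normalization, and the submitters' processing notes name Bowtie and hg38. The version of Bowtie, the counter, its annotation and strand setting, and how it treated multiply matching reads were not given in the sources used here, so that reads of overlapping, antisense or near-identical genes could be shared.

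Counts were filtered with filterByExpr by group and scaled by TMM (factors 0.951 to 1.038). A mean per group was fitted to the 8 libraries with edgeR 4.0.16 in R 4.3.3, with 4 residual degrees of freedom and a common biological coefficient of variation of 17.1%. Each contrast was put to the quasi-likelihood test, and p-values were adjusted by Benjamini and Hochberg over the 20238 genes kept, with a threshold of 0.05. The standard error of a log2 fold change was derived as its absolute value over the square root of its F statistic. CPM is the count per 1000000 of the library total, and levels per kilobase use the Ensembl canonical transcript of GENCODE 44. Differences between the replicates of a group instead use CPM on the TMM-scaled library sizes of the genes kept. Intervals of count ratios are exact 95% intervals and cover counting error only, since reads carry no molecular identifiers. Total counts per library, 31685148 to 43045127, put the floor of 3 counts at 0.0697 to 0.0947 CPM.

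The 40 genes, the 88 other pathway genes and the markers were chosen with earlier results of these data known. Some marker genes are not reported here. Values in every library are given for the members called and not overlapping in a line (the 10 largest changes), for the 8 largest differences between the lines, and for HIF1A, EPAS1, VHL, ARNT, SLC2A1, LDHA, LDHB and CA9. Other pathway genes are named up to 4 per list and line by size of change. Values of HK1, PGK1, PDK1 and CUL2 in each library were added after they were seen. Alternatives were RLE scaling, DESeq2 1.42.0, other filters, fits on 1 line, each library left out, the replicate number as a block, stricter thresholds, pseudogene counts added to their parent gene and mitochondrial genes left out of library sizes. The steps were tested on simulated data.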

Additional observations from a re-analysis of the deposited data

Results flagged for a closer look

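The change from sensitive to resistant cells differed between the lines for 14 of the 40 genes and for 17 of the other pathway genes that the text names, by the contrast of the PC3 change minus the DU145 change in edgeR (adjusted p under 0.05). The named genes were picked for large changes within a line in the same libraries, which favours a difference between the lines. Over all other pathway genes tested the number was 34 of 81, beside 34.3% of all genes. Values below are the PC3 change minus the DU145 change on the log2 scale. Among the 40 genes it was -1.21 for SLC2A1, 9.84 for SLC2A3, -1.32 for LDHA, 1.30 for SLC16A3 and 1.99 for PDK3. It was -1.37 for EPAS1, -0.84 for EGLN1, 4.44 for EGLN3 and -0.94 for VHL among the hypoxia regulators. Among hypoxia targets it was -0.91 for CA12, -1.74 for ADM, -1.52 for ANGPTL4, 1.07 for BNIP3L and -1.21 for ANKRD37. SLC2A3 and VHL were called in opposite directions in the lines, SLC16A3 was lower in both, and each of the others was called in at most 1 line.

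Of the other genes of glucose transport and lactate, the difference was 6.41 for SLC2A10, 2.94 for SLC2A4, 3.33 for SLC2A12, 2.86 for HKDC1, 4.78 for LDHD and 1.78 for SLC16A7. LDHD had 6 counts over both DU145 resistant libraries. For genes listed for pyruvate dehydrogenase and mitochondrial pyruvate import it was 2.28 for PDK4, 1.78 for PDK2, 2.16 for PC, 1.09 for MPC1 and -1.16 for PDHX. For oxygen sensing genes it was 4.95 for ARNT2 and -1.23 for CUL2. For other hypoxia targets it was -3.86 for IGFBP3, 5.63 for VLDLR, 9.29 for CXCR4 and 4.37 for RORA. CXCR4 had 1 count over both PC3 sensitive libraries, so that its fitted value depends on the prior count.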

How the results depend on the processing

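Counts of calls moved by more than 1.5 times as follows. With the limit of a 2-fold change, the members higher and lower in DU145 were 4 and 2 (from 7 and 4), those lower in PC3 were 5 (from 10), those higher and lower in PC3 sensitive than in DU145 sensitive cells were 11 and 6 (from 19 and 12), and the other pathway genes called were 21 in DU145 and 19 in PC3 (from 35 and 33). At an adjusted p under 0.01 the members lower in PC3 were 6, and the other pathway genes called were 20 in each line. When 1 library was left out, the members lower in DU145 ranged from 2 (without DU145 resistant replicate 1) to 6, those lower in PC3 from 6 (without PC3 sensitive replicate 1 or 2) to 11, and the other pathway genes called from 22 (without DU145 resistant replicate 1) to 34 in DU145 and from 18 (without PC3 sensitive replicate 1) to 37 in PC3, where leaving out replicate 2 gave 20. These fits test with fewer samples. Signs turned only for values that were not called, when 1 library was left out: LDHA in DU145 (-0.12 to 0.35), EPAS1 in PC3 (-0.27 to 0.058), CA9 in DU145 (-4.11 to 0) and the CA9 difference (-2.07 to 2.04), where CA9 had at most 2 counts per DU145 library.

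The replicate number as a block raised the members lower in DU145 to 7. Same-numbered libraries deviated together with a correlation of 0.323 in DU145 and 0.0861 in PC3, with 1 pair of groups each, so that the numbers were not taken to pair the samples. Of 82 values for named genes, the block changed 2 calls, and RLE scaling, DESeq2, pseudogene counts and the exclusion of mitochondrial genes changed 0. Most of these values were chosen because edgeR called them, so that calls gained by another method could hardly appear. Counted by role, DESeq2 gave 6 of 12 hypoxia targets a more negative change in PC3, where edgeR gave 4. It called 1 of 9 upper enzymes lower in PC3, where edgeR called 0. Of 656 values with 1 library left out, 66 lost and 1 gained their call. At 2 libraries a group, changes near 1.5-fold, such as those of VHL, ARNT, HK1 and PGK1, are at the limit of what the spread between libraries allows.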

Other observations

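Summed over genes, the 6 genes of lactate and pyruvate handling took 0.293% and 0.307% of all counts in PC3 sensitive and 0.178% and 0.171% in PC3 resistant libraries, and 0.186% to 0.231% in the DU145 libraries. The 6 hypoxia regulators took 0.0997% and 0.107% in DU145 sensitive and 0.132% and 0.146% in DU145 resistant libraries. The PC3 values were 0.119% and 0.114% (sensitive) and 0.0825% and 0.0897% (resistant). The sums of the regulators did not overlap between the variants and lay in opposite order in the lines. HIF1A and EPAS1 weighed most in the DU145 sums and HIF1A in the PC3 sums, and the sums were not tested.

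Promoters of the other pathway genes held a core of ACGTG or GCGTG in 49 of 71 cases (69%), and 39 of the 71 held at least 2, against 10 of the 35 promoters of members, 25.4% of the promoters of genes tested and 19.4% of all promoters. For at least 1 core the share over genes tested was 53.1%. Many of the listed genes were chosen as known HIF targets.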
